A study of Mus musculus with 6 samples.

Results

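Arterial, venous and lymphatic endothelial cells are told apart by a small set of genes. Arterial cells carry the membrane ligand ephrin-B2 and vascular connexins, venous cells carry its receptor EphB4 and the nuclear receptor COUP-TFII, which holds the venous state by repressing Notch signaling, and lymphatic cells arise from veins when the homeobox factor Prox1 is switched on. After myocardial infarction (MI), blood vessels and lymphatics regrow in the injured wall, and whether these genes differed in the absence of KDM5B, a histone H3K4 demethylase, was read here for 10 genes chosen by symbol. These are 10 of the 34745 genes listed in the deposited table, all 10 were found, and all 10 passed the filter on low counts that left 14084 genes for testing. The 5 arterial genes are *Efnb2*, *Gja4*, *Gja5*, *Bmx* and *Sema3g*, the 2 venous genes are *Ephb4* and *Nr2f2*, and the 3 lymphatic genes are *Prox1*, *Lyve1* and *Mmrn1*.

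The RNA came from cardiac fibroblasts of the left ventricle, isolated on Day 7 after MI from male mice. Their age is labelled as 8 to 10 weeks, which by the study's methods was the age at the operation. There were 3 libraries from KDM5B-knockout (KO) mice and 3 from wild-type (WT) littermates, and both groups underwent the infarction. The KO mice carry a CRISPR/Cas9 deletion inside *Kdm5b* that removes the catalytic JmjC domain. The sources used here do not say whether a library is from 1 mouse or a pool, so the tests measure the spread between these libraries only.

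Between 12025403 and 15329427 counts per library fell on genes. *Kdm5b* itself, most of which lies outside the deletion, had TMM-normalized CPM of 98.1, 107 and 105 under the KO label against 108, 129 and 123 under the WT label. The former 3 values all lie below the latter 3, but the difference was small and missed the threshold (log2 fold change -0.22, edgeR adjusted p = 0.0574). A count over the whole gene is a weak check of the labels, and the groups are therefore called the KO-labelled and the WT-labelled libraries. Fibroblast markers were abundant in every library, and 7 of 7 of them were lower in the KO-labelled libraries, at a median of -0.42 in log2 fold change. Of all genes tested, 17.7% were called higher and 12.5% lower at an edgeR adjusted p under 0.05. Cardiomyocyte genes (6 of 8 lower and 0 higher, median -0.41), mural cell genes (3 of 6 lower and 1 higher, -0.41) and mesothelial genes (4 of 5 lower and 1 higher, -0.41) had medians near that of fibroblasts, and pan-endothelial genes were higher in 11 of 14, with a median of 2.43. With the libraries instead scaled so that marker genes of cardiomyocytes and macrophages keep a median ratio of 1, which moves the median of all genes from -0.02 to 0.37, the medians were -0.03 for fibroblast and -0.02 for each of cardiomyocyte, mural and mesothelial genes, and 2.82 for pan-endothelial genes. The cardiomyocyte median is near 0 by construction, since these genes helped to set the scale. Markers of several cell types were thus present, and in bulk RNA fewer cells of a type and less RNA per cell cannot be told apart.

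The promoters of the venous pair and of the arterial ligand are shown because the receptor, its ligand and the venous factor carry the comparison between the classes. They are the 300 bases around the annotated start in RefSeq (GRCm38.p6, 5′ to 3′ on the gene's strand). Capitals mark any match to GGAAGT (the core bound by ETS factors), GTGGGAA (RBPJ, the DNA-binding partner of Notch), AACAAT (SOX factors) or AGGTCA (nuclear receptors) on either strand.
Ephb4, chr5:137349859-137350158, plus strand: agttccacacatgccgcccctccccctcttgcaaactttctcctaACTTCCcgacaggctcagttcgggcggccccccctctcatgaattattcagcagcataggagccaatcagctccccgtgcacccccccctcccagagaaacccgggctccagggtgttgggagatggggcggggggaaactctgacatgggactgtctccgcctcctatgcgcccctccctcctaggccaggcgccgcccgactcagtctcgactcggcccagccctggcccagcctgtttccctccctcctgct
Nr2f2, chr7:70366697-70366996, minus strand: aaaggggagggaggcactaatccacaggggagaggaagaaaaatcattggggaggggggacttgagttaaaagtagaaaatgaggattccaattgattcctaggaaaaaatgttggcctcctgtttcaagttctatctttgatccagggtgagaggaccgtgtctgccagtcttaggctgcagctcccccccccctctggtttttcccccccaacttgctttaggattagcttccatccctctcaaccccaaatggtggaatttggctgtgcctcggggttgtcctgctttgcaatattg
Efnb2, chr8:8661193-8661492, minus strand: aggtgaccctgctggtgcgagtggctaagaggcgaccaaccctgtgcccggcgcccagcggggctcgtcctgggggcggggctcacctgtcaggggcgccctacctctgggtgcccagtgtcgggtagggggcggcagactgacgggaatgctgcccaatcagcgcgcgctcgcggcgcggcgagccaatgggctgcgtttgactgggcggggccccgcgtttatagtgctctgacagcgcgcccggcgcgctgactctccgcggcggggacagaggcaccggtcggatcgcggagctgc

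The table of promoters held 9 of the 10 genes and has no entry for *Lyve1*. In the windows of *Ephb4*, *Nr2f2* and *Efnb2* there was a single match, the ETS core on the reverse strand in *Ephb4*. Other matches among the members were in *Mmrn1*, whose window holds GGAAGT and AACAAT. That window (chr6:60944067-60944366) lies inside the deposited gene, which starts at 60924976. The *Efnb2* window lies wholly upstream of the deposited gene, whose start on the minus strand is at 8660773. Neither window is thus at the start of the gene as deposited. Of 32851 promoter windows of the same length, 23.8% hold the ETS core, 6.38% the RBPJ core, 10.7% the SOX core and 16.3% the nuclear receptor element on either strand, and a window without these letters says nothing about whether the factor binds nearby. The windows differed in base composition: *Efnb2* had 35 CpG dinucleotides, *Gja4* 16, *Ephb4* 14 and *Nr2f2* 2, where the median of all windows was 7.

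Counts were compared between labels with edgeR's quasi-likelihood test on all 14084 genes, with TMM normalization and Benjamini-Hochberg adjustment, and a gene is called at an adjusted p under 0.05. Levels are given as TMM-normalized CPM, the counts of a gene scaled to the effective size of its library, and changes as the log2 fold change of the KO-labelled against the WT-labelled libraries with its standard error (SE). Of the 10 genes, 6 were called, where 30.2% of all genes tested were. The classes went different ways: 3 arterial genes were lower (with the marker scaling none was, and *Efnb2* was higher), both venous genes were higher, and of the lymphatic genes *Lyve1* alone was called, as higher. The background was 17.7% of genes called higher and 12.5% called lower. With the marker scaling it was 8389 of the 14084 genes higher and 56 lower. The median log2 fold change was -0.16 over the 10 members and -0.02 over all genes tested. The 3 libraries of each label did not overlap for 7 members, of which 3 were above (24.7% of all genes) and 4 below (22.4% of all genes). For a single gene, the exact two-sided permutation test over 3 libraries against 3 cannot go below p = 0.1, the value it gave for each of these 7.

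**Figure D1:**
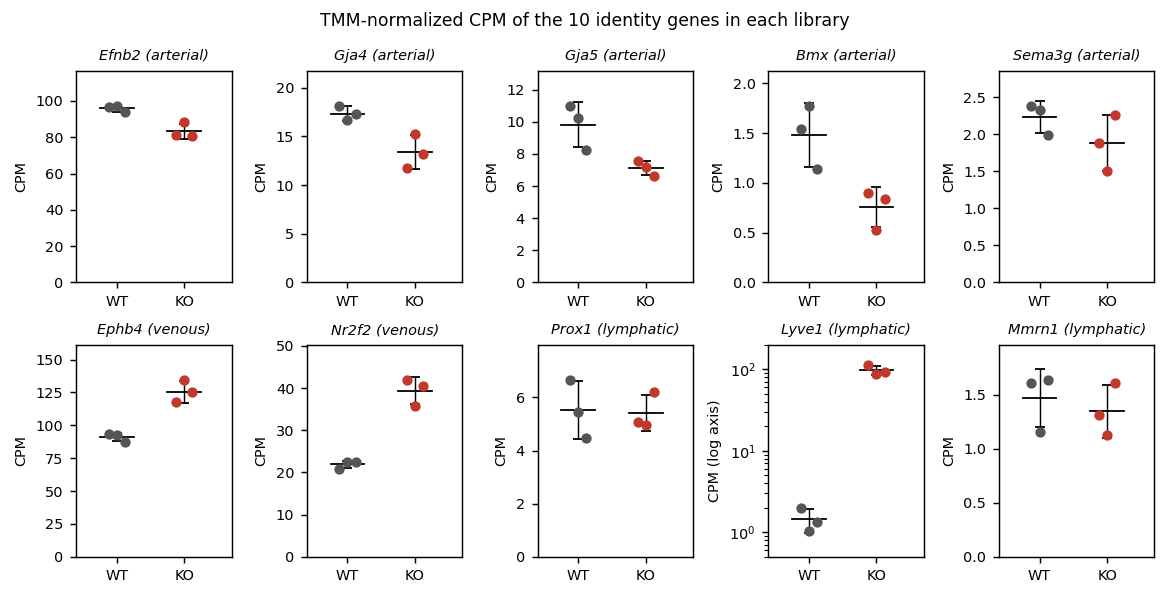
TMM-normalized CPM of each of the 10 genes (vertical axis, from 0 except for *Lyve1*, which has a log axis) in the 3 WT-labelled (gray) and 3 KO-labelled (red) libraries. Lines with bars give the mean and SD. *Lyve1*, *Ephb4* and *Nr2f2* lie higher in all KO-labelled libraries, *Efnb2*, *Gja4*, *Gja5* and *Bmx* lie lower on this scale (the marker scaling puts *Efnb2* at 0.18 and *Gja4* at 0.01 in log2 fold change, beside 0.37 for the median of all genes), and the other 3 overlap.

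*Lyve1* (ENSMUSG00000030787, chr7:110850607-110862953 in mm10, minus strand) encodes a hyaluronan receptor of lymphatic endothelium that is also carried by some tissue macrophages and by endothelium of the embryo and of sinusoids. It had 1379, 1187 and 1424 counts in the KO-labelled libraries and 28, 15 and 19 in the WT-labelled libraries. In TMM-normalized CPM these were 113, 89.0 and 91.8 against 1.96, 1.02 and 1.35. Every KO-labelled library was thus far above every WT-labelled one, and the latter were still above the floor of 3 counts. The log2 fold change was 6.08 (SE 0.19, adjusted p = 1.9e-06), a 67.4-fold rise with a 95% confidence interval from 50.2 to 90.5, and 99.6% of the genes tested had a smaller log2 fold change. Under the 15 alternatives tried it ran from 4.65 to 6.47 and was called in all 15.

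*Prox1* (ENSMUSG00000010175, chr1:190118035-190170714, minus strand) encodes the transcription factor that gives and keeps lymphatic endothelial identity, and it is also made by cardiomyocytes. It had 5.08, 4.95 and 6.19 CPM in the KO-labelled libraries and 6.65, 5.46 and 4.48 in the WT-labelled libraries. These ranges overlap throughout, the log2 fold change was -0.03 with a 95% confidence interval from -0.46 to 0.40 (adjusted p = 0.924), and a change as large as that of *Lyve1* is far outside that interval. *Mmrn1* (ENSMUSG00000054641, chr6:60924976-60989378, plus strand), which encodes the secreted glycoprotein multimerin of lymphatic endothelium and platelets, was near the lower end of what could be tested, with 16, 15 and 25 counts in the KO-labelled libraries and 23, 17 and 23 in the WT-labelled libraries. Its log2 fold change was -0.11, with an interval from -0.74 to 0.52 (adjusted p = 0.793). Of 4 tested genes of platelets and megakaryocytes, which also make multimerin, 2 were higher and 0 lower by edgeR (17.7% and 12.5% over all genes tested), where at an unadjusted p under 0.05 there was 1 lower. *Pf4* was at 2.87 and *Itga2b* at 0.93 in log2 fold change (the latter not called in 4 of the 6 fits that left out a library, with adjusted p up to 0.0781), and the genes not called were *Ppbp* at 0.23 and *Gp1bb* at -1.18 (adjusted p = 0.0723). The summed level of that list was 33.2 to 47.5 CPM against 8.05 to 12.3 CPM, of which *Pf4* alone gave 31.8 against 4.34 CPM on the mean. The lymphatic genes therefore did not move together: in deposited FPKM, which takes gene length into account, the ratio of *Lyve1* to *Prox1* within a library was 86.6, 70.0 and 57.8 in the KO-labelled libraries and 1.15, 0.73 and 1.17 in the WT-labelled libraries.

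The companion list of lymphatic genes also went both ways. Of its 9 symbols, 6 could be tested, and 3 were higher and 3 lower (17.7% and 12.5% over all genes tested). The 3 higher genes were *Gata2* (log2 fold change 2.95, adjusted p = 1.8e-05), *Sox18* (2.85, adjusted p = 8.6e-06) and *Flt4* (1.84, adjusted p = 2.0e-05), which encode transcription factors of endothelial and, for *Gata2*, blood cells, and the receptor of VEGF-C. The 3 lower genes were *Itga9* (-0.44), *Pdpn* (-0.43) and *Foxc2* (-0.41), an integrin subunit, the mucin-like membrane protein podoplanin and a factor of lymphatic valves, and these values lie near the median of -0.42 of fibroblast markers. With the marker scaling none of the 3 was called, at -0.06, -0.05 and -0.02. *Ccl21a*, a chemokine that lymphatic endothelium secretes, is listed under 2 identifiers and had 0 counts in every library for both, where 3 counts correspond to 0.193 to 0.246 CPM. *Reln* and *Tbx1* were too low to be tested. The list's median was 0.72, between its higher and its lower genes.

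Because macrophages of the heart can carry *Lyve1*, their genes were read beside it. Of 6 genes of resident macrophages, 3 could be tested and 0 were called by edgeR (0 also at an unadjusted p under 0.05, and 0 by DESeq2). *Timd4* and *Cd163* had 0 counts in every library, and the summed level of the list was 5.85 to 8.27 CPM in the KO-labelled and 4.83 to 7.85 CPM in the WT-labelled libraries. Of 8 rows of a general macrophage list, which holds *Itgam* under 2 identifiers, 3 were lower and 1 higher (12.5% and 17.7% over all genes tested), and the summed level was 1238 to 1264 CPM against 1514 to 1623 CPM. With the marker scaling, which rests partly on macrophage genes, 0 were lower and 1 higher, and the median of the list went from -0.35 to 0.05. The gene that was higher was *Cd68* (log2 fold change 1.38), which encodes a lysosomal protein. Pan-endothelial genes moved in the direction of *Lyve1*, with a summed level of 2104 to 2777 CPM in the KO-labelled and 842 to 850 CPM in the WT-labelled libraries. Much of the sum in the WT-labelled libraries came from *Ptprb* (291 CPM on the mean) and *Eng* (268 CPM), which were not called with TMM and had log2 fold changes of 0.08 and -0.02. With the marker scaling they were at 0.47 and 0.37 and were called. That scaling called 8389 of 14084 genes higher and 56 lower, around a median of 0.37. For each 1000 pan-endothelial counts there were 40.7, 42.3 and 38.3 counts on *Lyve1* in the KO-labelled libraries and 2.31, 1.22 and 1.60 in the WT-labelled libraries, a ratio of the means of 23.7. The size of this difference depends on the endothelial yardstick. Against *Pecam1* alone, which encodes the junction protein CD31 and was itself 15.8-fold higher, the ratio of *Lyve1* in FPKM was 0.540, 0.596 and 0.499 in the KO-labelled and 0.159, 0.0873 and 0.130 in the WT-labelled libraries, 4.34 times higher on the mean and without overlap. The part of endothelial or other cells in the level of *Lyve1* was not tested.

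*Nr2f2* (ENSMUSG00000030551, chr7:70351946-70366735, minus strand) encodes COUP-TFII, which is found in venous and lymphatic endothelium and also in mesenchymal cells and atrial muscle. It had 41.8, 35.7 and 40.4 CPM in the KO-labelled libraries and 20.9, 22.4 and 22.4 in the WT-labelled libraries. The labels were well separated, with a log2 fold change of 0.84 (SE 0.08, adjusted p = 2.4e-04), a 1.79-fold rise with an interval from 1.57 to 2.05. Of its annotated exonic bases 7.46% are shared with *B130024G19Rik* on the other strand, which had at most 25 counts in any library.

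*Ephb4* (ENSMUSG00000029710, chr5:137350109-137378669, plus strand) encodes the receptor tyrosine kinase through which venous cells meet arterial ephrin-B2. It had 118, 134 and 125 CPM in the KO-labelled libraries and 93.2, 92.7 and 87.6 in the WT-labelled libraries, again without overlap. The log2 fold change was 0.46 (SE 0.06, adjusted p = 0.00109), a 1.38-fold rise with an interval from 1.25 to 1.52. Both venous genes were called under all 15 alternatives, with log2 fold changes from 0.74 to 1.23 for *Nr2f2* and from 0.42 to 0.85 for *Ephb4*. Their rises were smaller than those of most pan-endothelial genes, and for each 1000 pan-endothelial counts both were lower in the KO-labelled libraries, at 16.3 ± 1.07 (SD, n = 3) against 25.9 ± 1.17 counts for *Nr2f2* and 52.8 ± 10.8 against 107.7 ± 3.63 counts for *Ephb4*. Since the pan-endothelial sum itself was higher, a gene that does not differ also comes out lower on this scale. *Nr2f2* was 1.59 times and *Ephb4* 2.04 times lower, where *Prox1* and *Mmrn1*, which were not called, were 2.90 and 3.10 times lower.

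Of 6 companion genes of veins, 5 could be tested, with 2 higher, 2 lower (17.7% and 12.5% over all genes tested) and a median log2 fold change of 0.04. *Vwf*, which encodes the von Willebrand factor that is most abundant in veins, rose most (1.50, adjusted p = 5.0e-05), and *Nrp2*, a co-receptor for VEGF-C and semaphorins, rose by 0.79 on the log2 scale. *Ackr1*, the chemokine-binding receptor of venules, had the largest fall (-1.72, adjusted p = 0.0109). It had 1.47, 4.28 and 1.35 CPM in the KO-labelled libraries and 8.75, 6.48 and 8.10 in the WT-labelled libraries. Without KO replicate 2 its log2 fold change was -2.45 (edgeR adjusted p = 3.8e-04). Without any other library it was between -1.84 and -1.41, with adjusted p from 0.0211 to 0.0380. *Ackr1* shares 25.7% of its exonic bases with *Cadm3*, so its count is uncertain. *Tll1*, a secreted metalloprotease, was also lower (-0.36, but 0.02 with the marker scaling). *Selp*, the P-selectin gene, was not called (0.04), but with the marker scaling it was called higher (0.42, adjusted p = 4.3e-04), which makes 3 higher and 1 lower in this list. That scaling called 8389 of 14084 genes higher and 56 lower, and *Selp* was near its median of 0.37. *Aplnr*, which encodes the apelin receptor, was too low to be tested. The wider venous list thus held both directions.

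*Efnb2* (ENSMUSG00000001300, chr8:8617434-8660773, minus strand) encodes ephrin-B2, the ligand of EphB4, which is also made by mesenchymal and mural cells. It had 81.4, 88.1 and 80.5 CPM in the KO-labelled libraries and 96.6, 97.2 and 93.8 in the WT-labelled libraries. The libraries did not overlap, but the difference was small: a log2 fold change of -0.20 (SE 0.06, adjusted p = 0.0269), with an interval from -0.33 to -0.07. The sign depends on the scaling, since the marker scaling put *Efnb2* at 0.18 (adjusted p = 0.0246), where it was called higher. That scaling called 8389 of the 14084 genes higher and 56 lower, with a median of 0.37 over all genes. *Efnb2* thus lay below the median of all genes with either scaling (-0.02 with TMM).

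The connexin genes *Gja4* and *Gja5* encode gap junction subunits of arterial endothelium, and *Gja5* is also active in atrial and conduction muscle. *Gja4* (ENSMUSG00000050234, chr4:127311421-127314039, minus strand) had 11.8, 15.2 and 13.2 CPM in the KO-labelled libraries and 18.1, 16.7 and 17.3 in the WT-labelled libraries, a log2 fold change of -0.37 (SE 0.11, adjusted p = 0.0409). *Gja5* (ENSMUSG00000057123, chr3:96904693-97077416, plus strand) had 7.53, 7.20 and 6.64 CPM against 11.0, 10.2 and 8.25 CPM, a log2 fold change of -0.47 (SE 0.14, adjusted p = 0.0406). Both lay lower in every KO-labelled library, and both values are close to the median of -0.42 of fibroblast markers and of -0.38 of atrial muscle genes. With the marker scaling *Gja4* was at 0.01 and *Gja5* at -0.08, and neither was called. *Gja5* shares 2.87% of its exonic bases with *Gpr89* on the other strand, which had 311 to 424 counts per library against 92 to 157 for *Gja5*, and whether strand was used in counting is not given in the sources used here. Whether RNA of muscle, mural or mesenchymal cells took part in the levels of the 3 arterial genes was not tested.

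The 3 arterial calls were near the threshold. With DESeq2 none of the 3 was called (adjusted p = 0.0604 for *Efnb2*, 0.0693 for *Gja4* and 0.0807 for *Gja5*). Each was called in only 1 of the 6 fits that left out a library, *Efnb2* and *Gja4* without KO replicate 2 and *Gja5* without WT replicate 3, with adjusted p in the other fits from 0.0513 to 0.131.

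*Bmx* (ENSMUSG00000031377, chrX:164192842-164258193, minus strand), a cytoplasmic tyrosine kinase of arterial endothelium and endocardium, had 11, 7 and 13 counts in the KO-labelled libraries and 22, 26 and 16 in the WT-labelled libraries. No KO-labelled library reached the level of a WT-labelled one, and the log2 fold change was -0.97 (SE 0.33), with an adjusted p of 0.0553 that missed the threshold. *Sema3g* (ENSMUSG00000021904, chr14:31217860-31230350, plus strand), a secreted semaphorin of arterial endothelium, had 23, 20 and 35 counts against 34, 34 and 28. Its ranges overlapped, with a log2 fold change of -0.24 and an interval from -0.78 to 0.30 (adjusted p = 0.481). None of the 5 arterial genes was higher with TMM by edgeR, also at an unadjusted p under 0.05, or by DESeq2. For each 1000 pan-endothelial counts the 5 were between 3.25 and 5.70 times lower in the KO-labelled libraries, beside the 2.90 and 3.10 times of *Prox1* and *Mmrn1* on the same scale.

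**Figure D2:**
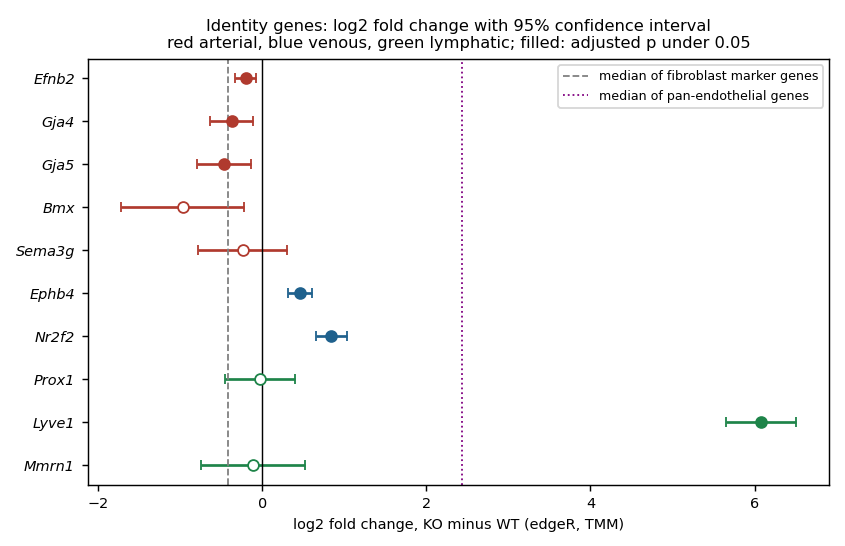
Log2 fold change (horizontal axis, KO-labelled against WT-labelled libraries) of the 10 genes with 95% confidence intervals, filled where the adjusted p was under 0.05. With TMM, as plotted, arterial genes (red) lie from -0.97 to -0.20, on both sides of the dashed line at -0.42, the median of fibroblast markers, the venous genes (blue) lie at 0.46 and 0.84, and *Lyve1* at 6.08 lies beyond the dotted line at 2.43, the median of pan-endothelial genes.

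The arterial companion list, which holds genes of the Notch pathway and other receptors of arterial cells, held both directions. Of its 12 genes, all of which could be tested, 5 were higher and 2 lower (17.7% and 12.5% over all genes tested), and the median of the list was 0.02 on the log2 scale. *Dll4*, the Notch ligand of arterial and sprouting endothelium, rose most (1.69, adjusted p = 0.00148), with 8.84, 5.85 and 6.77 CPM in the KO-labelled libraries against 1.96, 1.77 and 2.91. The receptors *Notch1* (1.09) and *Notch4* (0.75), the ligand *Jag1* (0.90) and the VEGF co-receptor *Nrp1* (0.45) also rose. The 2 genes called lower were *Cxcr4*, a chemokine receptor of arterial and blood cells (-0.78, adjusted p = 0.0105), and the netrin receptor gene *Unc5b*, which fell by 0.29 on the log2 scale, but neither fall was called with the marker scaling, where *Cxcr4* was at -0.39 and *Unc5b* at 0.10. The lowest value of the list was that of *Sox17*, an endothelial transcription factor of arteries (-0.82, adjusted p = 0.0946), which was not called although all KO-labelled libraries lay below all WT-labelled ones. The Notch target genes *Hey1* and *Hey2* were not called either, with log2 fold changes of -0.55 and -0.32.

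Relatives of the members were read by family. Of 6 other ephrin-B and EphB genes, 1 was higher and 3 lower (17.7% and 12.5% over all genes tested). *Ephb1* was higher (log2 fold change 2.37, adjusted p = 0.00913) from a low level, at 0.90 to 1.74 CPM against 0.07 to 0.36 CPM. *Efnb1*, another ligand of EphB receptors, had the largest fall (-0.55, adjusted p = 0.00533), and *Ephb2* (-0.35) and *Ephb3* (-0.38) were lower too. With the marker scaling these 3 were at -0.16, 0.03 and 0.01 and were not called. *Ephb2* and *Ephb3* were each called in only 1 of the 6 fits that left out a library. Of 9 other connexin genes 4 could be tested and 0 were called by edgeR or DESeq2, while at an unadjusted p under 0.05 there were 1 higher and 1 lower. *Gja1*, the main connexin of heart muscle and fibroblasts, had a log2 fold change of 0.00 with TMM, while with the marker scaling it was at 0.39 (adjusted p = 4.1e-04) and *Gjc1*, another connexin gene, at 0.64, and both were called higher. Over all 14084 genes the marker scaling called 8389 higher and 56 lower, with a median of 0.37.

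**Figure D3:**
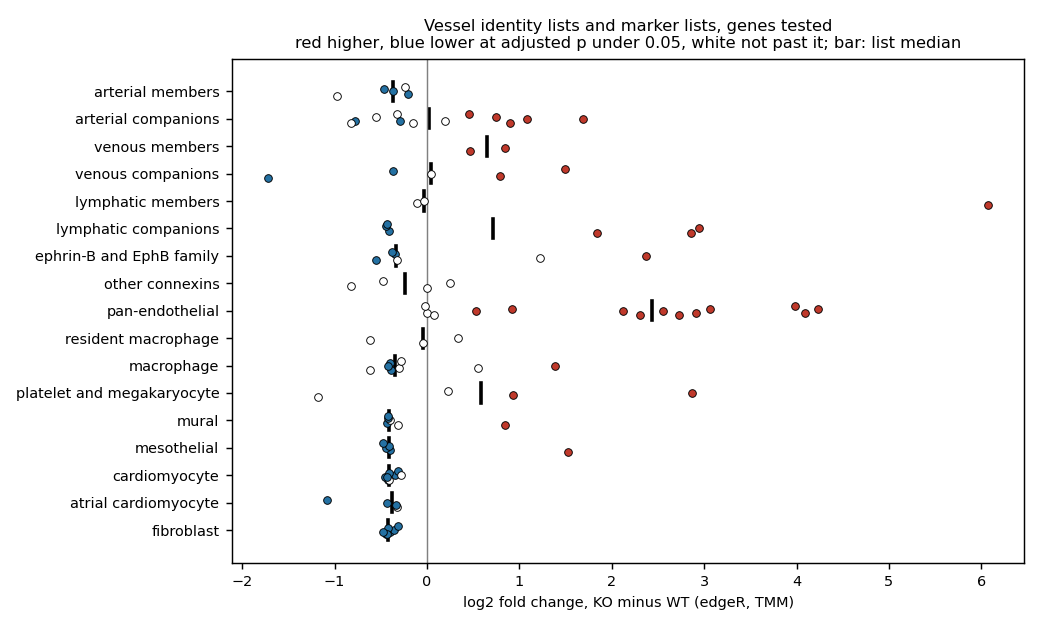
Log2 fold change (horizontal axis, KO-labelled against WT-labelled libraries) of each tested gene, by list, with red for higher, blue for lower and white for not called, and a bar at the list median. With TMM, as plotted, most fibroblast, cardiomyocyte, mural and mesothelial genes gather near -0.41 (near 0 with the marker scaling, for cardiomyocyte genes by construction), pan-endothelial genes spread up to 4.23, and *Lyve1* is the point at 6.08 among the lymphatic members.

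A ratio of 2 genes within a library does not depend on how the libraries are scaled. In deposited FPKM the ratio of *Ephb4* to its ligand gene *Efnb2* was 0.762, 0.804 and 0.821 in the KO-labelled libraries and 0.509, 0.503 and 0.493 in the WT-labelled libraries, 1.59 times higher on the mean. The ratio of *Nr2f2* to *Efnb2* was 0.467, 0.368 and 0.456 against 0.196, 0.210 and 0.217, 2.07 times higher. Neither ratio overlapped between the labels. For the arterial connexin genes, the ratio of *Gja4* to *Efnb2* (0.418 to 0.499 against 0.494 to 0.542) and that of *Gja5* to *Efnb2* (0.0559 to 0.0633 against 0.0601 to 0.0778) did overlap. The other arterial genes, *Bmx* and *Sema3g*, were not set against *Efnb2* in this way. These ratios show that the genes of each pair changed unequally or not measurably so, and do not tell which of them changed.

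**Figure D4:**
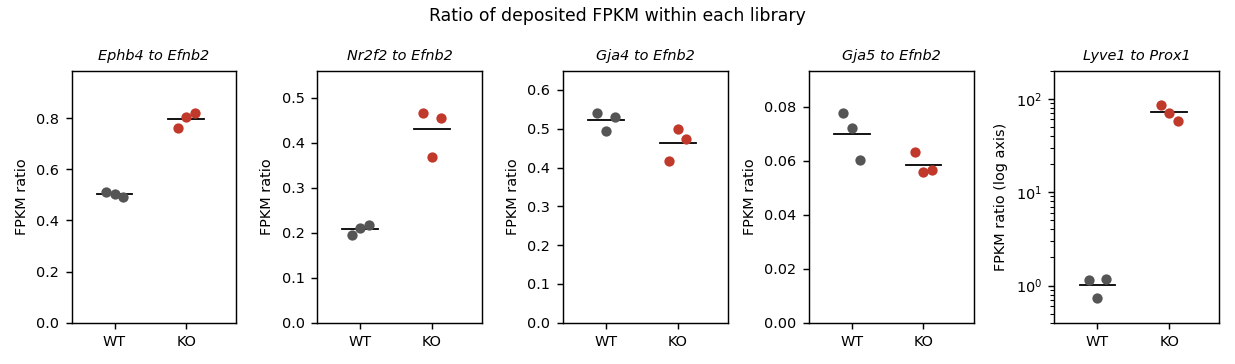
Ratio of deposited FPKM of 2 genes within each WT-labelled (gray) and KO-labelled (red) library, with lines at the means (vertical axes start at 0 except for *Lyve1* to *Prox1*, which has a log axis). *Ephb4* to *Efnb2*, *Nr2f2* to *Efnb2* and *Lyve1* to *Prox1* are higher in all KO-labelled libraries, and the connexin ratios overlap.

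The levels of the 10 genes were ordered by FPKM. In the WT-labelled libraries *Efnb2* was the most abundant, at 19.5 ± 0.37 FPKM (SD, n = 3), and was followed by *Gja4* at 10.2 ± 0.46 and *Ephb4* at 9.77 ± 0.33, which overlapped each other. *Nr2f2* was at 4.04 ± 0.16 FPKM and *Gja5* at 1.36 ± 0.20. *Lyve1*, *Prox1*, *Sema3g* and *Bmx* came next, between 0.548 and 0.413 FPKM on the mean. *Lyve1* did not overlap *Gja5*, while *Prox1*, *Sema3g* and *Bmx* each overlapped the gene above it in the order, and *Mmrn1* was lowest at 0.198 ± 0.036 FPKM. In the KO-labelled libraries the order began with *Lyve1* at 38.0 ± 5.24 FPKM, followed by *Efnb2* at 17.3 ± 0.78 and *Ephb4* at 13.8 ± 0.85, with no overlap between these neighbours. *Gja4* at 8.04 ± 0.99 and *Nr2f2* at 7.42 ± 0.64 overlapped, where in the WT-labelled libraries they were apart. The rest kept the order *Gja5*, *Prox1*, *Sema3g*, *Bmx* and *Mmrn1*, in which *Sema3g* and *Mmrn1* each overlapped the gene above. The gene that ranked sixth in the WT-labelled libraries thus ranked at the top in the KO-labelled ones, and among the other 9 genes only *Gja4* and *Ephb4* changed places.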

How the data were processed

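RNA-seq data of 6 libraries, 3 labelled KO and 3 labelled WT, were used. Paired-end reads were aligned by the authors with HISAT2 (mm10), and they deposited raw counts per gene, whole numbers without normalization. The deposited FPKM values are scaled by gene length and library total. The counting tool, annotation release and strand setting are not given in the sources used here. The test was the quasi-likelihood test of edgeR 4.0.16 under R 4.3.3 (filterByExpr, TMM scaling, glmQLFit and glmQLFTest, with Benjamini-Hochberg adjustment over 14084 genes, adjusted p under 0.05), with both groups in the fit and no covariate. The standard error is the log2 fold change divided by the root of the F statistic, and intervals use the t distribution of the same fit. Totals of 12025403 to 15329427 counts put 3 counts at 0.193 to 0.246 CPM, and such floors cover counting error only. Replicates differed by more than counting noise. Alternatives were a fit without the filter, a filter at mean CPM 1, DESeq2 1.42.0, library size, upper quartile, scaling on 15 cardiomyocyte and macrophage marker genes, limma 3.58.1 on log2(FPKM + 1) and log2(FPKM + 0.1), a replicate block, and each library left out. Each test was tested on simulated data beforehand.

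The members and lists were chosen with earlier results of these data known. All members are named; of companion lists, the largest and smallest changes past the threshold, the genes not tested and further genes named after their values were seen. Exon overlaps are from GENCODE vM21 and promoter sequences from RefSeq, both on GRCm38, the build also called mm10. Plots used matplotlib 3.10.9 (Python 3.11.15).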

Additional observations from a re-analysis of the deposited data

How the results depend on the processing

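Higher calls of *Lyve1*, *Ephb4* and *Nr2f2* held under all 15 alternatives, and those of arterial, venous, lymphatic and pan-endothelial lists stayed within 1.5 times. Lower calls were less stable. Of the 3 members called lower, 0 were called with DESeq2, 1 with library size, 0 with marker scaling and 0 to 2 when a library was left out. *Efnb2* was at -0.20 (adjusted p = 0.0604) with DESeq2 and 0.18 (adjusted p = 0.0246) with marker scaling. *Gja4* was at -0.37 with DESeq2, -0.34 with library size, 0.015 with marker scaling and -0.38 with the replicate block. *Gja5* was at -0.46 with DESeq2, -0.43 with library size, -0.079 with marker scaling, and -0.23 and -0.39 with limma at pseudocounts of 1 and 0.1. *Bmx* was called at -1.01 with the upper quartile and at -0.22 and -0.71 with limma. The cause of these differences was not tested, except that marker scaling shifts all genes nearly alike by construction. In these libraries the shift was upward, to a median of 0.37 over all genes, with 8389 of 14084 called higher and 56 lower. *Sema3g* (0.15), *Prox1* (0.36) and *Mmrn1* (0.28) lay above 0 with marker scaling, and *Prox1* was at 0.0058 with library size and at 0.0017 and 0.0090 with limma, and none of these was called.

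With a library left out, the log2 fold changes ran from -0.24 to -0.17 for *Efnb2*, -0.46 to -0.28 for *Gja4*, -0.58 to -0.38 for *Gja5*, -1.13 to -0.76 for *Bmx*, -0.40 to -0.09 for *Sema3g*, -0.16 to 0.12 for *Prox1* and -0.26 to 0.013 for *Mmrn1*. With marker scaling, lower calls were 0 for arterial, 1 for venous and 0 for lymphatic companions. In the ephrin-B and EphB family, higher calls were 0 with a mean CPM of at least 1, 2 with marker scaling and 1 to 2 with a library left out, and lower calls were 1 with library size, 0 with marker scaling, 1 with limma at either pseudocount and 1 to 2 with a library left out. Other connexins had 2 higher with marker scaling and 1 lower with limma at a pseudocount of 0.1.

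Whether the replicate numbers pair the libraries cannot be told from 3 libraries per label. Deviations from the group means of same-numbered libraries correlated at 0.0021 to 0.035. The highest value was that of KO replicate 3 with WT replicate 3, while KO replicate 1 correlated best with WT replicate 2 (0.021). The replicate block called 2316 genes higher and 1591 lower, against 2488 and 1760 without it, and among the members it changed the call of *Gja4* only (adjusted p = 0.0737). *Bmx*, *Sema3g* and *Mmrn1* had at most 35 counts in any library, which limits what could be detected for them.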
